A study of Mus musculus with 6 samples.

Results

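The enzymes that place, copy and remove DNA methylation were followed here across testes of mouse embryos that lack Dmrt1 and across control testes. The members were the genes Dnmt1, Uhrf1, Dnmt3a, Dnmt3b, Dnmt3l, Tet1, Tet2, Tet3 and Tdg, 9 in all, taken as every probe set of the array whose annotation gives exactly 1 gene symbol equal to one of these names. A probe set is a group of short oligonucleotides that together measure 1 transcript. The rule found 20 probe sets of 8 genes, among 45101 probe sets that name 18194 gene symbols where a probe set has just 1. Tdg had none, because each of its 3 probe sets also names Tdg pseudogenes, so no level is given for it.

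Gene expression was measured on oligonucleotide arrays in testes of E13.5 embryos, 3 Dmrt1 null and 3 control, after outcrossing to 129S6/SvEvTac mice, in which mutants often form teratomas. Dmrt1 encodes a DM domain transcription factor of Sertoli cells and germ cells. Titles give the null samples as Dmrt(-,-) and descriptions as Dmrt1 (-/-), whereas the genotype tag gives Dmrt(flox/flox). The controls are called wild type in the titles, Dmrt1 (+/-) in the descriptions and Dmrt(+/-) in the genotype entries. No Cre line is named in the labels. Each sample is labelled a biological replicate, and the labels do not say whether gonads of several embryos were pooled. Dmrt1 intensity was 48.4, 26.9 and 23.8 in null replicates 1, 2 and 3, against 696, 1030 and 796 in control replicates 1, 2 and 3.

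Methylation of cytosine in CpG dinucleotides is copied after DNA replication by Dnmt1, which the hemimethylated-DNA reader Uhrf1 brings to new strands. Dnmt3a and Dnmt3b add methyl groups to unmethylated DNA, with Dnmt3l as a catalytically inactive partner in germ cells. Tet enzymes oxidise 5-methylcytosine, and Tdg excises the oxidised bases. At this age, mouse germ cells have lost most of their DNA methylation, and male germ cells then regain it before birth, which makes these enzymes of interest in a fetal testis.

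Promoter windows show the regions from which the members are transcribed. RefSeq (GRCm38.p6) gave 16 windows for the 9 genes, each with 250 bases before and 50 after an annotated start. The letters ACATTGT, the core of the sequence that DM domain proteins bind, were searched on both strands. They were in 0 of the 16 windows and in 2.96% of the 32851 windows of all genes. The letters of E2F sites, which mark many S phase genes, were searched as TTTCGCGC, TTTGGCGC, TTTCCCGC and TTTGCCGC on both strands. They were in 2 of the 16 windows, 1 of Dnmt1 and 1 of Uhrf1, and in 2.26% of all windows. A match to these letters is a description of the sequence. The motifs were chosen after the windows were seen, so the shares are not a test. Each of these E2F strings holds a CpG. Both windows with a match hold 33 CpG, and 91.4% of all windows hold fewer. The first pair of windows below is shown for those matches, in capitals, in the 5′ to 3′ direction of the gene, at chr9:20952574-20952873 on the minus strand for Dnmt1 and at chr17:56304063-56304362 on the plus strand for Uhrf1. The second pair shows CpG dinucleotides in capitals for the member with the smallest limma p, Tet1 (chr10:62887275-62887574, minus strand), and for the member closest to background, Dnmt3l (chr10:78042037-78042336, plus strand).
Dnmt1: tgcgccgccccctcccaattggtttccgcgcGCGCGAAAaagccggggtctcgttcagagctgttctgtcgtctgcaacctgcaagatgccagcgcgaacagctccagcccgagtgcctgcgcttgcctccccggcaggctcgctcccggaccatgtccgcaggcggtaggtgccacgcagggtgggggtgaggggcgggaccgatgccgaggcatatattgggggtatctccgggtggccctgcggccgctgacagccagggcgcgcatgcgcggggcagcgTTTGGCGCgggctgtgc
Uhrf1: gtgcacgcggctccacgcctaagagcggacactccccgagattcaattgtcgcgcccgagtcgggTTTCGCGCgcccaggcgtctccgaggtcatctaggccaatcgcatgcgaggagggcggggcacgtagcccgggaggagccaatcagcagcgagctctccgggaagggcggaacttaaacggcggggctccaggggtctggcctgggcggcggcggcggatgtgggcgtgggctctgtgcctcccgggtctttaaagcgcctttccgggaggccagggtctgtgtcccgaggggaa
Tet1: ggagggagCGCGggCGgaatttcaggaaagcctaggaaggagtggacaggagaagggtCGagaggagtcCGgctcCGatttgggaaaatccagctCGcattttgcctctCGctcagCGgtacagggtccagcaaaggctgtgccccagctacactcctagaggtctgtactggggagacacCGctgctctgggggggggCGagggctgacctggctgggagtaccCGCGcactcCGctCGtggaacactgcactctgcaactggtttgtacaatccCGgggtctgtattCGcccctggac
Dnmt3l: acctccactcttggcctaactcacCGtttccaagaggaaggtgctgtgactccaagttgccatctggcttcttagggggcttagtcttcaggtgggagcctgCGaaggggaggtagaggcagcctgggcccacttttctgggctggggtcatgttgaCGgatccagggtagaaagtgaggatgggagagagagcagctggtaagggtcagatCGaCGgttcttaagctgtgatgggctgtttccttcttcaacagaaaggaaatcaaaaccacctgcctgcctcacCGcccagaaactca
The Dnmt1 window holds TTTCGCGC on the opposite strand, read as its reverse complement, and TTTGGCGC on the printed strand. CpG counts differed widely between members. The Tet1 window has 17 CpG, and the printed Dnmt3l window has 6, while the other Dnmt3l windows have 4 and 3. The windows of Tet2 and Dnmt3a reach 57 and 47, against a median of 7 over all windows.

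Loss of Dmrt1 left no member past the test. Of the 20 probe sets, 19 reached a mean log2 intensity of 4 over the 6 arrays and were tested with limma across all 22082 probe sets that did, and 0 were called at a Benjamini-Hochberg adjusted p under 0.05. By the same test, 0.0272% of all probe sets were called. At an unadjusted p under 0.05, limma gave 1 of the 19, a Tet1 probe set, against 6.04% of all probe sets. Null and control arrays were fully separated, without overlap, at 2 of the 19, both lower in the null, against 12.8% of all probe sets in either direction and 6.06% in that direction. The log2 differences of null minus control lay between -0.38 and 0.40, and adjusted p between 0.773 and 0.996. Differences were below 0 at 13 probe sets and above 0 at 6, with a median of -0.08, while the median over all probe sets tested was 0.01. Omitting control replicate 1 moved it to 0.0005, with 9 below 0 and 10 above. Confidence intervals (95%) lay within 1 log2 unit on either side of 0 at 17 of the 19 probe sets. The exceptions were 1 probe set of Tet1 and 1 of Tet2.

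**Figure D1:**
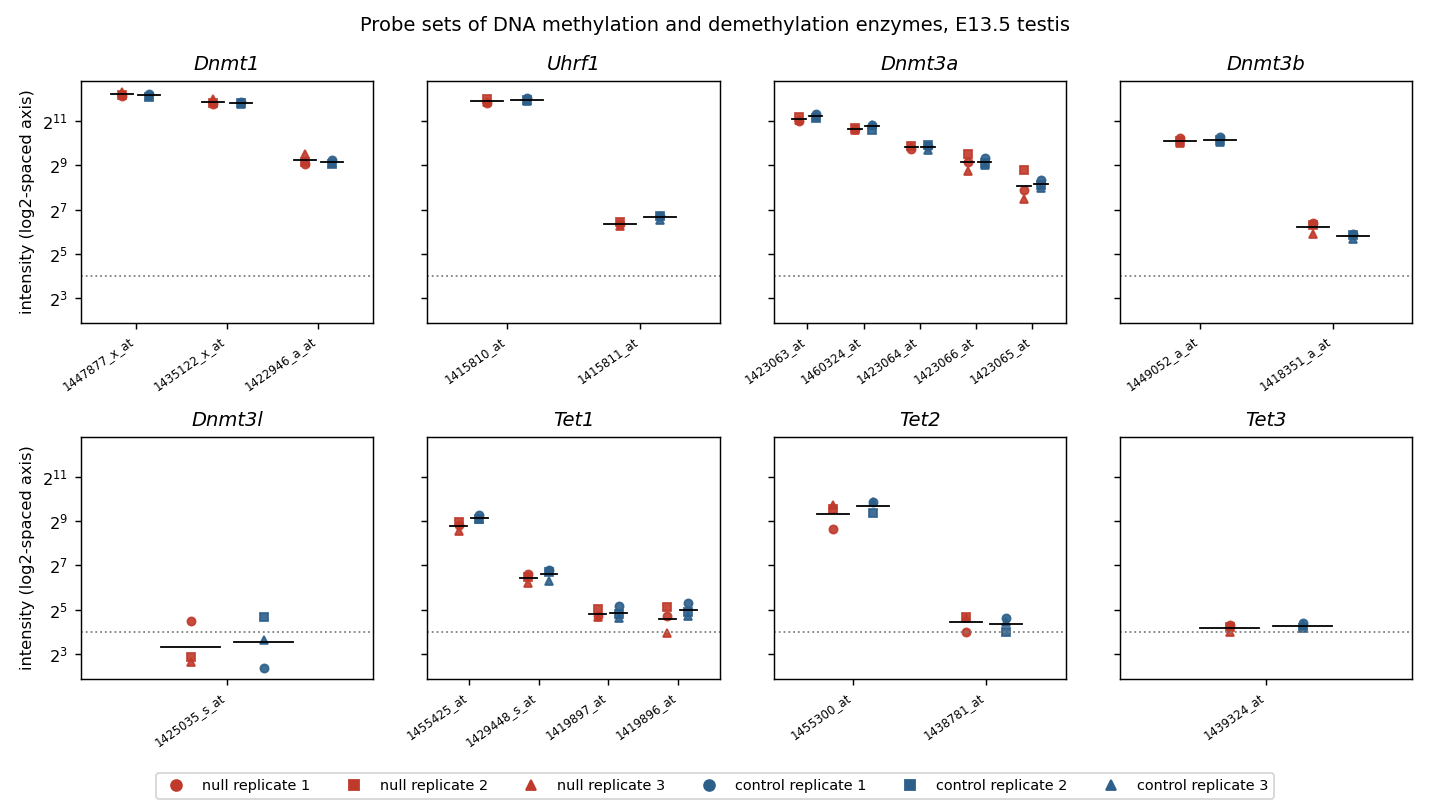
Intensity of every probe set of the 8 measured genes on a log2-spaced axis, with null arrays in red on the left of each pair and control arrays in blue on the right. Black bars are geometric means of 3 arrays, and the dotted line marks the log2 value of 4 below which a mean kept a probe set out of the test. The groups overlap at all tested probe sets except 1 of Uhrf1 and 1 of Tet1, and levels of different probe sets are not comparable with each other.

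Maintenance of methylation was represented by the transcripts of Dnmt1 and Uhrf1. These arrays do not measure DNA methylation, protein or enzyme activity. The brightest Dnmt1 probe set gave intensities of 4470, 4650 and 5050 in null replicates 1, 2 and 3, against 4790, 4340 and 4510 in control replicates 1, 2 and 3. The groups overlapped, and null replicate 3 was the highest array. The log2 difference was 0.05 (95% confidence interval -0.09 to 0.20, limma adjusted p = 0.871), an interval of 0.938 to 1.15 as a ratio of null over control. The other Dnmt1 probe sets had differences of 0.06 and 0.09 and also peaked in null replicate 3. Of the 3 Dnmt1 probe sets, 2 are _x_at types, which may cross-hybridise with other transcripts, and the remaining one gave 525, 569 and 717 in null replicates 1, 2 and 3, against 604, 538 and 548 in control replicates 1, 2 and 3.

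Uhrf1 was measured by a bright and a dim probe set that differed in how the groups separated. The bright one gave 3610, 4020 and 3720 in null replicates 1, 2 and 3, against 4210, 3970 and 3790 in control replicates 1, 2 and 3. Null replicate 2 lay among the controls. Its log2 difference was -0.08 (95% confidence interval -0.23 to 0.07, limma adjusted p = 0.823). The dim one gave 81.6, 86.4 and 76.6 in null replicates 1, 2 and 3, against 103, 104 and 93.5 in control replicates 1, 2 and 3. All null arrays lay below all control arrays here, with a log2 difference of -0.30 (95% confidence interval -0.61 to 0.02, limma adjusted p = 0.773). The difference of this dim probe set stayed between -0.35 and -0.25 with any 1 array omitted. Both probe sets carry the same source accession in the annotation, which does not say which parts of the transcript they cover.

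Transcripts of S phase stood on the other side of 0 from Uhrf1. All 16 S phase markers, such as the replication helicase subunits Mcm2 and Mcm6, had log2 differences above 0, with a median of 0.14, whereas 56.3% of all genes were above 0 at their brightest probe set. Their summed intensity was 42155 to 45867 in null testes, against 39876 to 41548 in control testes, so the sums did not overlap. All null arrays lay above all controls at 6 of the 16 and below at 0, against 6.73% and 6.06% of all probe sets. None of the 16 was called by limma (lowest adjusted p = 0.773), against 0.0272% of all probe sets. At an unadjusted p under 0.05 limma gave 1 of the 16, against 6.04% of all probe sets. Without control replicate 2, 13 of the 16 were above 0. Null replicate 3 was the highest of the 6 arrays at 9 of the 16, and its median deviation from the 6-array mean was 0.16, beside 0.04 and 0.01 in null replicates 1 and 2. It is also the array with the highest 3′ over 5′ ratios of the control transcripts Actb and Gapdh, given below, and without it 15 of the 16 were above 0 with a median of 0.10. The parts of proliferation and of RNA length in the Dnmt1, Uhrf1 and S phase levels were not tested. In bulk tissue, fewer cells of a type and less RNA per cell cannot be told apart.

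De novo methylation was represented by Dnmt3a, Dnmt3b and Dnmt3l. Dnmt3a, which also has a short isoform made from an internal promoter in germ cells, had 5 probe sets, all with the same source accession. The brightest gave 2040, 2290 and 2120 in null replicates 1, 2 and 3, against 2540, 2250 and 2380 in control replicates 1, 2 and 3. Only null replicate 2 reached the range of the controls. The log2 difference was -0.15 (95% confidence interval -0.33 to 0.02, limma adjusted p = 0.773), and it lay between -0.20 and -0.11 with single arrays left out. The second brightest had a difference of -0.12 and the third one of 0.0025.

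The remaining Dnmt3a probe sets, 1423065_at and 1423066_at, varied together between arrays far more than the other 3. Probe set 1423065_at gave 239, 441 and 176 in null replicates 1, 2 and 3, against 318, 279 and 251 in control replicates 1, 2 and 3. Probe set 1423066_at gave 560, 731 and 427 in null replicates 1, 2 and 3, against 633, 551 and 510 in control replicates 1, 2 and 3. Null replicate 2 was the highest and null replicate 3 the lowest of the 6 arrays at both, and the controls lay between them. The highest array was 2.51 and 1.71 times the lowest at these probe sets, and 1.15 to 1.25 times at the other 3 probe sets of Dnmt3a. The differences between the groups were -0.09 and -0.01, and without null replicate 3 they were 0.21 and 0.19. For the control transcript Actb, 3′ over 5′ signal, which rises when RNA is shortened, reached 2.75 in null replicate 3, with 1.91 to 2.15 elsewhere. For Gapdh it reached 1.87 in that array, with 1.55 to 1.59 elsewhere. Null replicate 2, the highest array at both probe sets, had ratios of 1.91 for Actb and 1.58 for Gapdh, against 1.92 and 1.55 in control replicate 2, and so did not stand apart in them. The part of RNA length in the Dnmt3a values was not tested, and the annotation used here does not say which isoforms these probe sets cover.

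**Figure D2:**
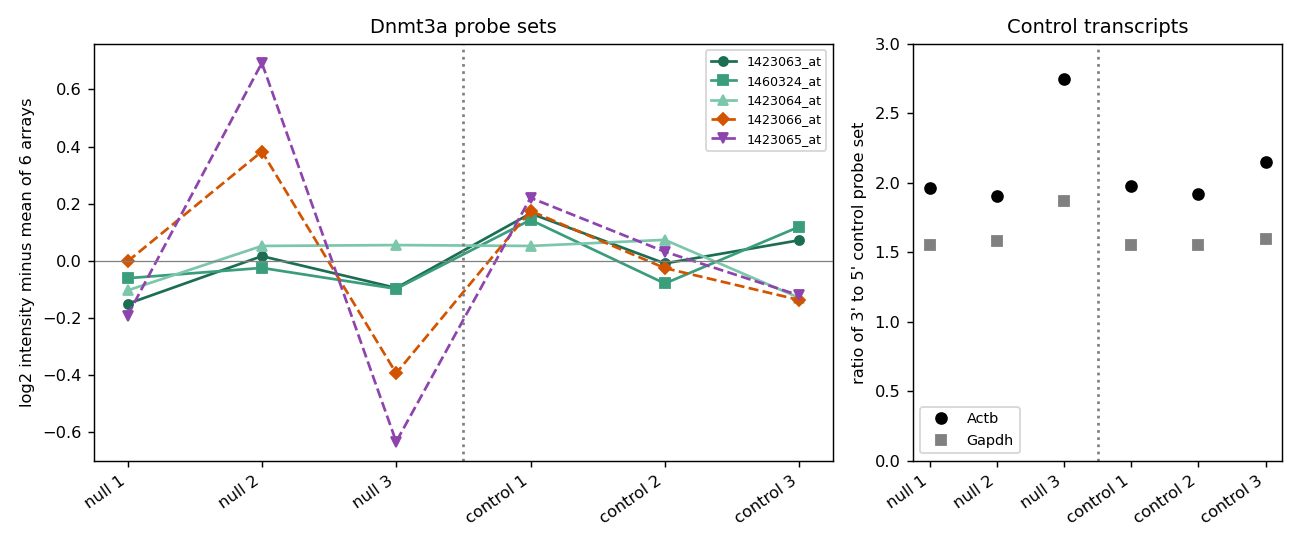
Left, log2 intensity relative to the 6-array mean for the 5 Dnmt3a probe sets, by array, with lines joining the values of 1 probe set. Right, ratio of the 3′ to the 5′ control probe set for Actb and Gapdh in the same arrays. Probe sets 1423065_at and 1423066_at are high in null replicate 2 and low in null replicate 3, where both ratios are highest.

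Dnmt3b, the methyltransferase best known for satellite repeats and early embryos, had 2 probe sets that differed in sign. The bright one gave 1200, 1100 and 1020 in null replicates 1, 2 and 3, against 1240, 1110 and 1050 in control replicates 1, 2 and 3. The groups almost coincided, with a log2 difference of -0.03 (95% confidence interval -0.27 to 0.20, limma adjusted p = 0.950). The dim one gave 85, 79.8 and 60.0 in null replicates 1, 2 and 3, against 60.1, 57.9 and 50.6 in control replicates 1, 2 and 3. It had the highest difference of all members, 0.40 (95% confidence interval -0.01 to 0.82, limma adjusted p = 0.773). Null replicate 3 lay within the range of the controls, by a margin of the last digit. Without null replicate 3 the difference was 0.56, and with the other arrays left out in turn it was 0.30 to 0.45.

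Dnmt3l, which steers Dnmt3a2 in prospermatogonia, was close to background and was not tested. Its probe set, an _s_at type that may cross-hybridise, gave 22.8, 7.35 and 6.16 in null replicates 1, 2 and 3, against 5.18, 25.2 and 12.5 in control replicates 1, 2 and 3. The array medians were 14.6 to 14.8, so only null replicate 1 and control replicate 2 were above them. The mean was 12.1 ± 9.28 in null testes and 14.3 ± 10.1 in control testes (SD, n = 3 each), and the spread within each group was larger than the difference between them.

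The arrays that were high for Dnmt3l also differed from most others in markers of germ cells, Leydig cells, vessels and blood. The level of a marker list is given as the median over its tested genes of the log2 deviation from each gene's 6-array mean. Germ cell levels, over 9 markers, were 0.14, -0.19 and -0.26 in null replicates 1, 2 and 3, against -0.34, 0.58 and -0.01 in control replicates 1, 2 and 3. Control replicate 2 and null replicate 1 were the highest. Levels of the Leydig cell markers, 4 steroid-making genes, were 1.26, -0.65 and -1.40 in null replicates 1, 2 and 3, against -0.75, 0.76 and 0.78 in control replicates 1, 2 and 3. All 4 were highest in null replicate 1, and Cyp11a1, which starts steroid synthesis, was there 12.1 times its level in the lowest array, null replicate 3. Endothelial levels were -0.55, 0.27 and 0.43 in null replicates 1, 2 and 3, against 0.36, -0.92 and 0.34 in control replicates 1, 2 and 3. Erythroid levels were -0.25, 0.44 and 0.55 in null replicates 1, 2 and 3, against 0.65, -1.10 and -0.03 in control replicates 1, 2 and 3. Both lists were lowest in control replicate 2 and next lowest in null replicate 1. The part of tissue composition in the Dnmt3l values was not tested.

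None of these 4 marker lists held a gene called by limma. At an unadjusted p under 0.05, limma gave 1 of the 9 germ cell markers tested, against 6.04% of all probe sets. The summed intensity of the 10 germ cell markers with a probe set was 7274 to 9583 in null testes, against 7622 to 11889 in control testes. Of the germ cell markers, 7 of 9 tested were below 0, with a median of -0.18, and Tdrd1 was at 5.88 to 9.21 in all arrays. This direction rested on 1 array, since without control replicate 2 only 3 of the 9 were below 0 and the median was 0.09. The germ cell genes Ddx4 and Dazl had log2 differences of -0.22 and -0.18 (limma adjusted p = 0.832 and 0.774). All 4 Leydig cell markers were below 0, with a median of -0.53, and without null replicate 3 the median was -0.0015 with 2 on each side. Their sum was 3204 to 12950 in null testes, against 4024 to 10320 in control testes. Sums of the endothelial markers were 1300 to 2468 in null testes, against 938 to 2619 in control testes, and those of the erythroid markers were 13323 to 17717 in null testes, against 10754 to 18703 in control testes. The groups overlapped in the sums of all 4 lists. Of 4 interstitial cell markers, 3 were below 0, with a median of -0.06, and none was called or had an unadjusted p under 0.05.

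Sertoli cells, the supporting cells of a testis, were followed by 9 markers, of which 6 were above 0 and 3 below, with a median of 0.06. Sox9, a transcription factor gene of these cells, was measured at 298 to 554 in null testes, against 419 to 877 in control testes. The hormone gene Amh was at 133 to 166 in null testes, against 140 to 153 in control testes. Cst9, a cystatin family gene, was named after its values were seen. It was the 1 marker of the 9 called by limma, against 0.0272% of all probe sets. Cst9 gave 1180, 860 and 1150 in null replicates 1, 2 and 3, against 3040, 3460 and 2940 in control replicates 1, 2 and 3. It was lower in the null at 33.5% of the control level, a log2 difference of -1.58 (limma adjusted p = 0.0271), and the call was lost without null replicate 3 (limma adjusted p = 0.196) or any 1 control array (limma adjusted p = 0.0603 to 0.204). Aard, also named after its values were seen, was at 3920 to 4580 in null testes, against 5530 to 6050 in control testes. Its log2 difference of -0.43 was not called (limma adjusted p = 0.474). The sum of the 9 markers was 16509 to 17825 in null testes, against 19106 to 20602 in control testes, so the sums did not overlap. These sums include Cst9 and Aard, the 2 markers of the 9 at which all null arrays lay below all controls, against 6.06% of all probe sets. At 1 marker all null arrays lay above all controls, against 6.73% of all probe sets, and the groups overlapped at the rest. The separation of the sums is therefore not a result about the list as a whole. The part of Sertoli cells in the members' values was not tested.

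Oxidation of methylcytosine was represented by the Tet genes, and the brightest probe set of Tet1 had the smallest p of the 19. It gave 453, 503 and 375 in null replicates 1, 2 and 3, against 618, 541 and 547 in control replicates 1, 2 and 3. All null arrays lay below all control arrays, and Tet1 averaged 444 ± 64.5 in null testes and 569 ± 42.8 in control testes (SD, n = 3 each). The null level was 77.6% of the control level, a log2 difference of -0.37 (95% confidence interval -0.68 to -0.05, standard error 0.14). Limma gave an unadjusted p of 0.0294 and an adjusted p of 0.773, so Tet1 was not called. Null replicate 3, the array with the highest Actb ratio, was the lowest of the 6, and without it the difference was -0.25. With the other arrays left out in turn it was -0.46 to -0.30.

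The other 3 Tet1 probe sets were dimmer and their groups overlapped. Their log2 differences were -0.18, -0.04 and -0.37, all of the same sign as the brightest, and null replicate 3 was the lowest array at 2 of them. Probe set 1419896_at, at 15.3 in null replicate 3, had a difference of -0.37 with all arrays and -0.03 without that array. The mean over the 4 probe sets gave a difference of -0.24 (limma adjusted p = 0.766). Null replicate 3, the lowest array for the brightest Tet1 probe set, had the lowest germ cell level of the null arrays, and control replicate 1, the highest for Tet1, had the lowest germ cell level of all 6.

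Macrophage markers separated the groups in the same direction as Tet1. Their levels were -0.16, -0.18 and -0.26 in null replicates 1, 2 and 3, against 0.04, 0.07 and 0.47 in control replicates 1, 2 and 3. All 5 markers were below 0, with a median of -0.32. All null arrays lay below all controls at 3 of them, against 6.06% of all probe sets. Among these 3, Adgre1 and Cx3cr1 were dim, at 32.3 to 54.1 and 21.9 to 28.8 over the 6 arrays. None was called by limma (lowest adjusted p = 0.773), and 2 had an unadjusted p under 0.05, against 6.04% of all probe sets. Their summed intensity was 680 to 738 in null testes, against 830 to 1234 in control testes. Most of that sum was Mrc1, at 505 to 533 in null testes, against 642 to 968 in control testes. Csf1r, the next brightest, overlapped, at 78.1 to 141 in null testes, against 89 to 153 in control testes. Without control replicate 3, the highest array at 4 of the 5, there were 4 below 0 and the median was -0.27. The parts of germ cells and of macrophages in the Tet1 values were not tested.

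Tet2, an enzyme prominent in blood cells, had the lowest difference of all members but rested on 1 array. Its bright probe set gave 406, 753 and 849 in null replicates 1, 2 and 3, against 928, 666 and 930 in control replicates 1, 2 and 3. The groups overlapped, and the lowest array of each group was null replicate 1 and control replicate 2. The log2 difference was -0.38 (95% confidence interval -1.02 to 0.25, limma adjusted p = 0.800), and without null replicate 1 it was -0.06. The lows fell in the same arrays as the lows of the endothelial and erythroid markers, given above, and the part of those cells in the Tet2 values was not tested. The dim Tet2 probe set had a difference of 0.09, opposite in sign, at intensities of 15.8 to 25.6.

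**Figure D3:**
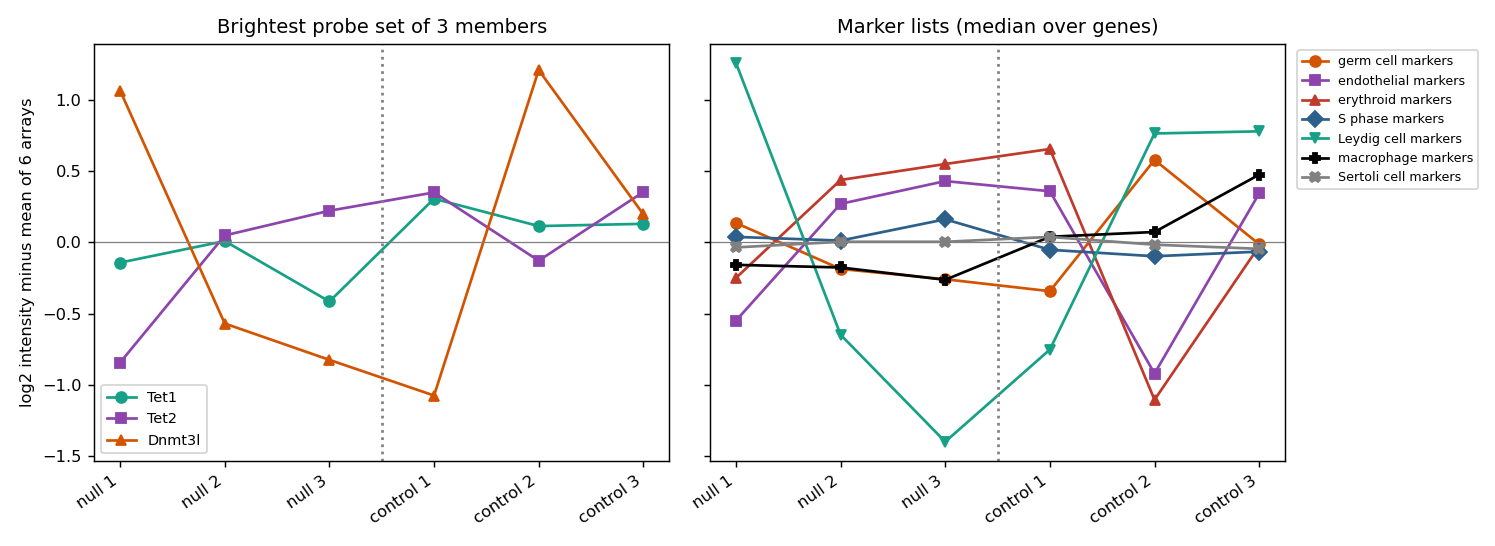
Log2 intensity relative to the 6-array mean, by array, for the brightest probe sets of Tet1, Tet2 and Dnmt3l on the left and for the median of each marker list named in the legend on the right, with lines joining the values of 1 gene or list. Dnmt3l is high and Tet2 low in null replicate 1 and control replicate 2, where germ cell markers are highest and endothelial markers lowest. Leydig cell markers are high in those arrays and in control replicate 3, and macrophage markers are lower in every null array than in every control array.

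Tet3, the enzyme of the zygote and of neural tissue, had a single probe set near background. It gave 19.8, 18.9 and 16.1 in null replicates 1, 2 and 3, against 21.1, 17.8 and 19.6 in control replicates 1, 2 and 3. The groups overlapped, with a log2 difference of -0.10 (95% confidence interval -0.47 to 0.28, limma adjusted p = 0.912).

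**Figure D4:**
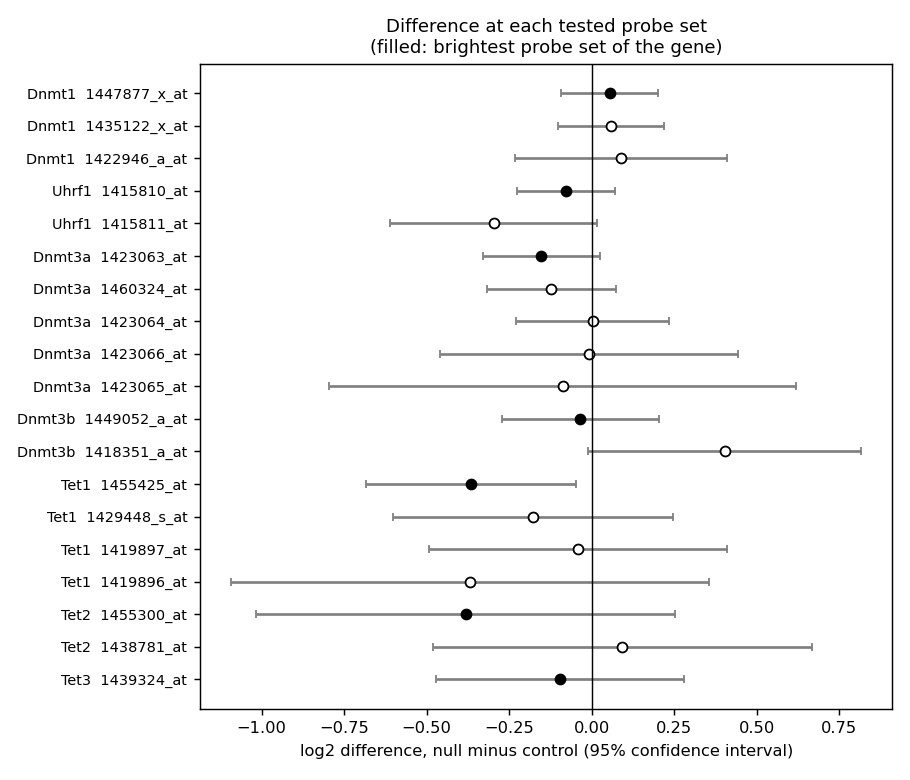
Log2 difference of null minus control with its 95% confidence interval from limma at each of the 19 tested probe sets, grouped by gene. Filled circles are the brightest probe set of a gene. The interval excludes 0 at 1 probe set, the brightest of Tet1.

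The genes whose levels ran most closely with a member over the 6 arrays were sought for Dnmt3l and Uhrf1. For Dnmt3l, among 9690 genes, bright enough to average a log2 value of 6, they were Ifi27, Setd3 and Hspb1 (r = 0.997, 0.994 and 0.994), each highest in null replicate 1 and control replicate 2. Ifi27, an interferon-induced gene, gave 694, 392 and 372 in null replicates 1, 2 and 3, against 343, 676 and 502 in control replicates 1, 2 and 3. For Uhrf1 they were Med15, Nolc1 and Arhgap29 (r = 0.991, 0.978 and 0.972), each highest in control replicate 1, with null replicate 1 lowest or tied for lowest. The likeness r is the Pearson correlation of log2 values across the 6 arrays, a description picked out of many genes.

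Beyond the members, 65 other genes of DNA methylation were tested out of 77 listed, and 0 were called, against 0.0272% of all probe sets. At an unadjusted p under 0.05 limma gave 2 of them, Ogt and Gadd45g, a smaller share of the 65 than the 6.04% of all probe sets and the 6.44% of all genes at this p. Their values are given as those of the smallest p, with nothing read from them about the list. Differences were above 0 at 31 and below 0 at 34, with a median of -0.01, beside 0.03 over the brightest probe sets of all genes. Ogt, the O-GlcNAc transferase that binds Tet proteins, gave 1360, 1550 and 1540 in null replicates 1, 2 and 3, against 1780, 1810 and 1910 in control replicates 1, 2 and 3. All null arrays were below all controls, with a log2 difference of -0.31 (95% confidence interval -0.50 to -0.12, limma adjusted p = 0.773). Gadd45g, a stress-induced gene linked to demethylation, gave 196, 194 and 207 in null replicates 1, 2 and 3, against 167, 133 and 140 in control replicates 1, 2 and 3. All null arrays were above all controls, with a log2 difference of 0.45 (95% confidence interval 0.13 to 0.77, limma adjusted p = 0.773). Over all probe sets, groups did not overlap at 6.06% lower and at 6.73% higher in the null.

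Partners of maintenance methylation had 5 of 7 tested genes above 0 and a median of 0.03. That direction turned on single arrays, with 3 of 7 above 0 and a median of -0.01 without null replicate 3, 3 of 7 and -0.03 without control replicate 1, and 4 of 7 and 0.13 without control replicate 2. The DNA ligase Lig1 at 0.19 and the replication clamp Pcna at 0.11 had the smallest p of the group. All null arrays lay above all controls at both, against 6.73% of all probe sets. Pcna is also 1 of the 16 S phase markers. Hells, a chromatin remodeller needed for repeat methylation, was at -0.12 and the Uhrf1 paralogue Uhrf2 at 0.0009. Genes of the families that hold the readers of methylated CpG had 4 of 6 above 0 and a median of 0.08. Without null replicate 3 this was 3 of 6 and 0.04. The family members Mbd3 and Mbd2 were at 0.26 and 0.08. The mean over all probe sets of the gene was of opposite sign for Mbd2, Uhrf2 and Hells. Genes of base excision and deamination had 11 of 15 above 0 and a median of 0.09, which was 0.06 to 0.11 with single arrays left out. Besides Gadd45g, the glycosylases Nthl1 and Mbd4 were at 0.27 and 0.16, and the difference of Mbd4 ran from -0.04 to 0.28 with any 1 array omitted.

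Genes that guide or protect methylation had 9 of 12 below 0 and a median of -0.07. Without control replicate 2 there were 6 of 12 below 0 and a median of -0.03, and without null replicate 1 there were 7 of 12 below 0. The structural chromatin protein Smchd1 was at -0.13 and the histone demethylase Kdm1a at -0.07. Dppa3, which shields methylation in the zygote and marks early germ cells, gave 4190, 3630 and 3340 in null replicates 1, 2 and 3, against 3050, 4890 and 3890 in control replicates 1, 2 and 3. Its groups overlapped, and its difference of -0.06 lay between -0.24 and 0.10 with single arrays left out. Genes listed under supply of methyl groups or 2-oxoglutarate, a list that also holds Ogt, had 7 of 13 above 0. Their median was 0.0052, with 4 of 13 above 0 and a median of -0.04 without null replicate 3. Mthfd1 of folate metabolism was at 0.25 and Idh1, which makes 2-oxoglutarate, at -0.01. No gene of these groups was called.

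Germline genes known to be silenced by promoter methylation in somatic cells had 11 of 12 tested members below 0 and a median of -0.22, with 0 called. This rested on 1 array. Of the 14 with a probe set, 13 were highest in control replicate 2, and 12 were highest among the null arrays in null replicate 1. Tex19.1, a methylation-sensitive germ cell gene, gave 126, 113 and 94.2 in null replicates 1, 2 and 3, against 107, 272 and 142 in control replicates 1, 2 and 3. Its log2 difference was -0.54 (limma adjusted p = 0.778), and -0.16 without control replicate 2. Without that array, 8 of the 12 genes were above 0 and the median was 0.04. The list shares 4 symbols with the germ cell markers, which were highest in the same array, and how far the germ cell content of that sample accounts for these values was not tested.

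**Figure D5:**
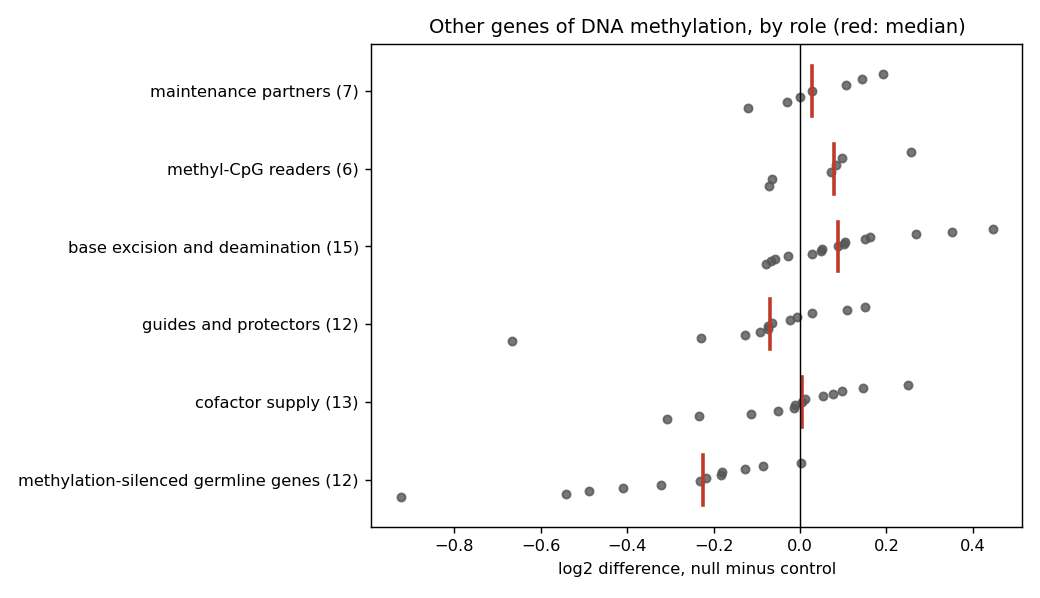
Log2 difference of null minus control for each of the tested genes outside the members, at the brightest probe set, grouped by role with the number tested in brackets. Red bars are medians, which lie between -0.22 for silenced germline genes and 0.09 for base excision and deamination.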

How the data were processed

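Gonads were collected at E13.5, and 100 ng of total RNA per sample was amplified, labelled with biotin and hybridised, per the labels' protocols. The authors made the deposited intensities, which are linear, with GCRMA, per the submitters' processing notes. GCRMA corrects background and summarises probes, so differences between dim values depend on it. Arrays were grouped by title. Depth does not apply to arrays, and 3 arrays per group limit the precision.

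The platform annotation gave 34958 of 45101 probe sets 1 gene symbol, 932 several and 9211 none, and only the first were named. The 22082 probe sets whose log2 values averaged 4 or more entered limma 3.58.1 (R 4.3.3), using group alone, an intensity trend, two-sided tests and Benjamini-Hochberg adjustment over all of them. Lists of genes were read from that fit at the brightest probe set of each gene. The fit was checked on simulated data. From the wider list the text names called genes, the 2 of smallest p per role and some fixed by name, and among markers Aard and Cst9 were added after their values were seen. Promoter motifs were chosen after the windows were seen. Members and lists were chosen with earlier results of these data known. Alternatives were other filters, an added constant of 16, quantile normalization, no trend, array weights, the replicate block, single arrays left out, and gene means. Same-numbered null and control arrays had deviations correlated at -0.59, -0.34 and 0.14, so the numbers were not taken as pairs. Arrays of different numbers had correlations of -0.40 to 0.58. The highest were 0.58 for null replicate 1 with control replicate 2 and 0.46 for null replicate 2 with control replicate 1. Between 2 arrays, 301 to 451 values were equal.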

Additional observations from a re-analysis of the deposited data

How the results depend on the processing

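No member probe set and no gene of the wider list was called by limma in any of the settings tried, a count of 0 throughout, and the lowest adjusted p of a member was 0.457, for the dim Dnmt3b probe set with array weights. Over all probe sets, the 6 calls became 1 without the intensity trend, 0 with the replicate block and 0 to 5 with single arrays left out, and the Dmrt1 difference of -4.72 had a limma adjusted p of 0.200 with the replicate block. Without control replicate 3, 0 of all probe sets were called and Dmrt1 had a limma adjusted p of 0.0556. With 0 of all probe sets called, the replicate block and the omission of control replicate 3 say nothing about the members. The call of Cst9, lower in the null, was also lost without the intensity trend and with the replicate block (limma adjusted p = 0.0930 and 0.463), and its difference stayed between -1.66 and -1.43 with single arrays left out. Array weights gave 0.15 for Tet1 1419897_at, 0.14 for Dnmt3a 1423065_at, 0.14 for Dnmt3a 1423066_at and 0.021 for the bright Dnmt3b probe set, each opposite in sign to the unweighted value, and the cause was not tested. The mean over all probe sets of a gene gave 0.18 for Dnmt3b, -0.041 for Mbd2, -0.044 for Uhrf2 and 0.0014 for Hells, because their probe sets differ in sign. With single arrays left out, differences ranged from -0.16 to 0.11 for Tet1 1419897_at, -0.042 to 0.18 for Dnmt1 1422946_a_at, -0.0057 to 0.11 for Dnmt1 1435122_x_at, -0.062 to 0.055 for Dnmt3a 1423064_at, -0.46 to 0.21 for Dnmt3a 1423065_at and -0.20 to 0.19 for Dnmt3a 1423066_at. They ranged from -0.086 to 0.31 for Tet2 1438781_at, -0.094 to 0.033 for the bright Dnmt3b probe set, -0.048 to 0.066 for Uhrf2, -0.040 to 0.28 for Mbd4, -0.24 to 0.10 for Dppa3, -0.037 to 0.0086 for Idh1, -0.40 to 0.018 for Ddx4 and -0.0011 to 0.16 for Amh. Dmrt1 stayed between -5.03 and -4.52. Probe sets near background, as for Dnmt3l and Tet3, limit what these arrays can show.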
